A study of Homo sapiens with 12 samples.

Results

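Incipient mesoderm-like cells (iMeLC) were compared with the human embryonic stem cells (hESC) they were made from, in control lines of the series only. All cells derive from UCLA1, an established hESC line. Of the 12 bulk RNA-seq libraries of the series, 6 belong to this comparison and were chosen by their labels: 3 control hESC libraries and 3 control iMeLC libraries. Each stage holds the control lines CTRL1101, CTRL1106 and CTRL1109, whose genotype is labelled control, so the TET1 gene keeps its catalytic domain. The other 6 libraries come from lines with a knockout of that domain and entered a wider fit only. The labels give no treatment, day of culture or medium for either stage, and they do not say whether the 3 lines are single clones or separate cultures, so each p-value below measures the spread between these libraries. The iMeLC columns carry the line number, whereas the hESC columns carry the numbers 1 to 3, so the hESC libraries are called CTRL hESC 1, 2 and 3 and are tied to no line.

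As background, iMeLC are a short-lived intermediate made from primed pluripotent stem cells with activin A and an agonist of WNT signalling, and they are used as the starting point for primordial germ cell-like cells. Activin and NODAL signal through SMAD2 and SMAD3, and WNT stabilises beta-catenin, which acts with TCF and LEF factors. In the embryo these pathways induce the primitive streak, where epiblast cells switch on TBXT, EOMES and MIXL1, lose pluripotency factors step by step and pass through an epithelial-to-mesenchymal transition. How these samples were induced is unknown, as it was not given in the sources used.

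The hESC libraries held 16325691 to 18855099 counts and the iMeLC libraries 91226186 to 109479071, so stage coincides with depth and with the table the counts were deposited in, and these cannot be told apart from stage. Genes with at least 1 count numbered 24733 to 28108 per hESC library and 25572 to 26020 per iMeLC library. Cytoplasmic ribosomal protein genes took 3.23% to 3.38% of the counts in hESC and 4.54% to 4.91% in iMeLC, and histone genes 1.27% to 1.62% and 0.854% to 1.19%. No pair of libraries of a stage agreed within sampling noise. RNA was total RNA of sorted cells or cell pellets, prepared with a stranded total RNA kit. In such bulk libraries, fewer cells of a type and less RNA per cell cannot be told apart.

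Of the 19982 genes tested with edgeR's quasi-likelihood test, 5144 (25.7%) were higher and 3261 (16.3%) lower in iMeLC at a Benjamini-Hochberg adjusted p under 0.05. Among these, 2604 genes (13.0% of those tested) were higher and 1747 (8.74%) lower by at least 2-fold. The libraries of the 2 stages did not overlap in 55.6% of all genes tested. Among the genes called, 8333 did not overlap and 72 did, so a lack of overlap adds little to a call. The median log2 fold change (iMeLC minus hESC) over all genes was -0.03. Upper-quartile scaling moved that median by -0.35 and turned the calls to 3391 higher and 6382 lower, so that 34.7% of calls were higher in place of 61.2%. Scaling on protein-coding genes alone moved it by -0.13 and gave 4405 higher and 4331 lower (50.4% higher). In all, 3391 genes were called higher and 3261 lower under every scaling tried. Each of these scalings moved fold changes down, so keeping all the lower calls says nothing of their strength. The count of genes called higher under every scaling is that of upper-quartile scaling. The lists below are read against the shares called over all genes tested. Levels are in CPM, which are counts scaled to a common library size with TMM factors, log2 fold changes carry their standard error (SE), and "rose" or "fell" is used only for a gene past the adjusted threshold.

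**Figure D1:**
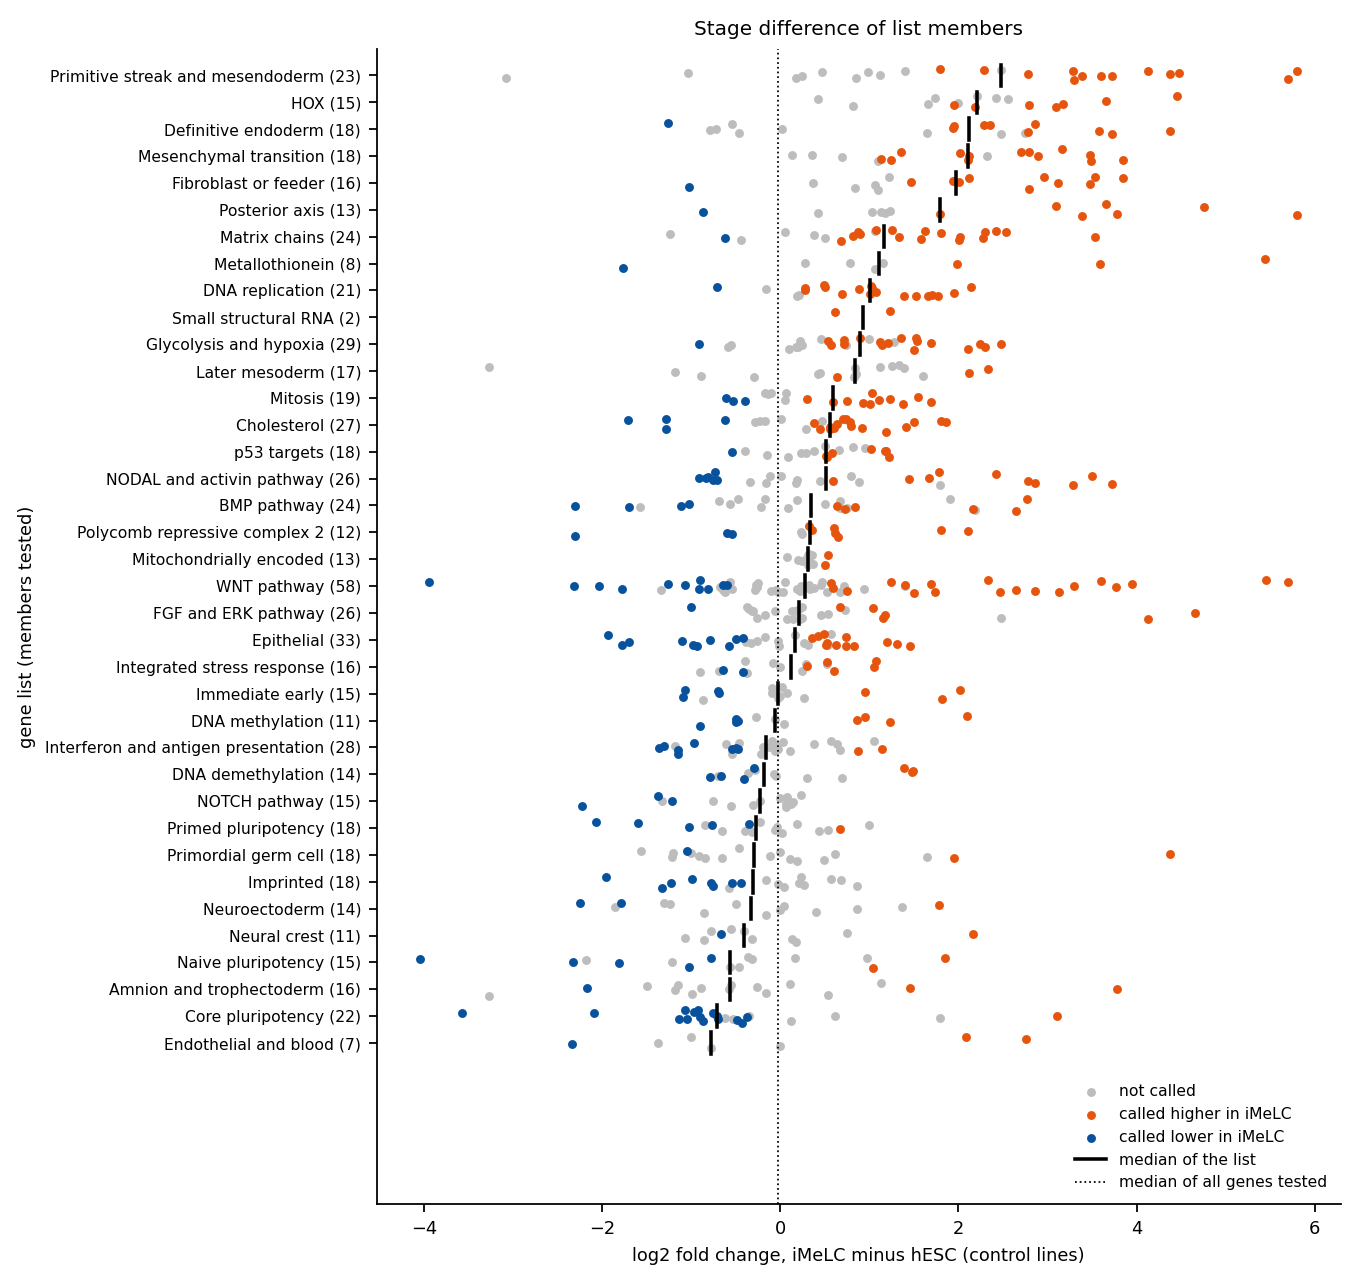
Log2 fold change (iMeLC minus hESC, horizontal axis) of each tested member of the 37 gene lists, with the median of each list marked. The primitive streak list has a median of 2.48 and the mesenchymal list one of 2.11, the core pluripotency list has one of -0.71, and the median over all genes tested is -0.03.

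Primitive streak genes were the list with the largest median change. Of 23 tested members, 13 rose and none fell, each by at least 2-fold, with a median log2 fold change of 2.48. Among the 14 transcription factors 8 rose, and among the 9 ligands and surface genes 5 rose. TBXT (Brachyury, the T-box factor of nascent mesoderm, on chromosome 6) measured 2.43, 0.363 and 0.472 CPM in CTRL hESC 1, 2 and 3, and its level in iMeLC of lines CTRL1101, CTRL1106 and CTRL1109 was 51.7, 11.8 and 113 CPM. All 3 iMeLC libraries lay above all hESC libraries, with CTRL1106 lowest and CTRL hESC 1 highest of its stage, and the log2 fold change was 5.80 (SE 0.99, adjusted p = 0.00229). EOMES, a T-box factor of mesendoderm, measured 9.71, 1.61 and 1.56 CPM in hESC and 95.6, 16.5 and 150 CPM in iMeLC (4.37, SE 0.96, adjusted p = 0.00774). MIXL1, a homeobox factor of the streak, measured 11.8, 3.26 and 1.56 CPM and then 94.7, 23.0 and 246 CPM (4.47, SE 0.98, adjusted p = 0.00774). GSC, which marks the anterior streak and organizer, rose from 1.45 to 2.77 CPM in hESC to 15.7, 3.19 and 65.6 CPM in iMeLC (3.73, SE 0.98, adjusted p = 0.0172). The same order of lines recurs in these 4 genes: CTRL1109 was highest and CTRL1106 lowest, and the stages did not overlap in any of them.

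The libraries of a stage differed in the level of these genes. CTRL1106 was the lowest iMeLC library in 20 of the 23 tested streak members and in 13 of 13 that rose. CTRL1109 was the highest in 15 of 23, and CTRL hESC 1 was the highest hESC library in 14 of 23. The summed level of the list was 119.7 to 214.8 CPM in the hESC libraries, 541.9 CPM in CTRL1106, 1471 CPM in CTRL1101 and 1823 CPM in CTRL1109 iMeLC. Without CTRL hESC 1 the log2 fold change of TBXT became 7.17, that of EOMES 5.82 and that of MIXL1 5.70. Without CTRL1109 iMeLC these were 4.87, 3.69 and 3.39, and that of GSC was 2.11. GSC passed the threshold without any 1 of the iMeLC libraries but not without CTRL hESC 1, 2 or 3 (adjusted p = 0.0501, 0.067 and 0.0723). Limma-voom called 4 streak members higher, and TBXT, EOMES, MIXL1 and GSC had log2 fold changes of 5.77, 4.46, 4.43 and 2.90 there with adjusted p = 0.118, 0.0943, 0.086 and 0.317.

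**Figure D2:**
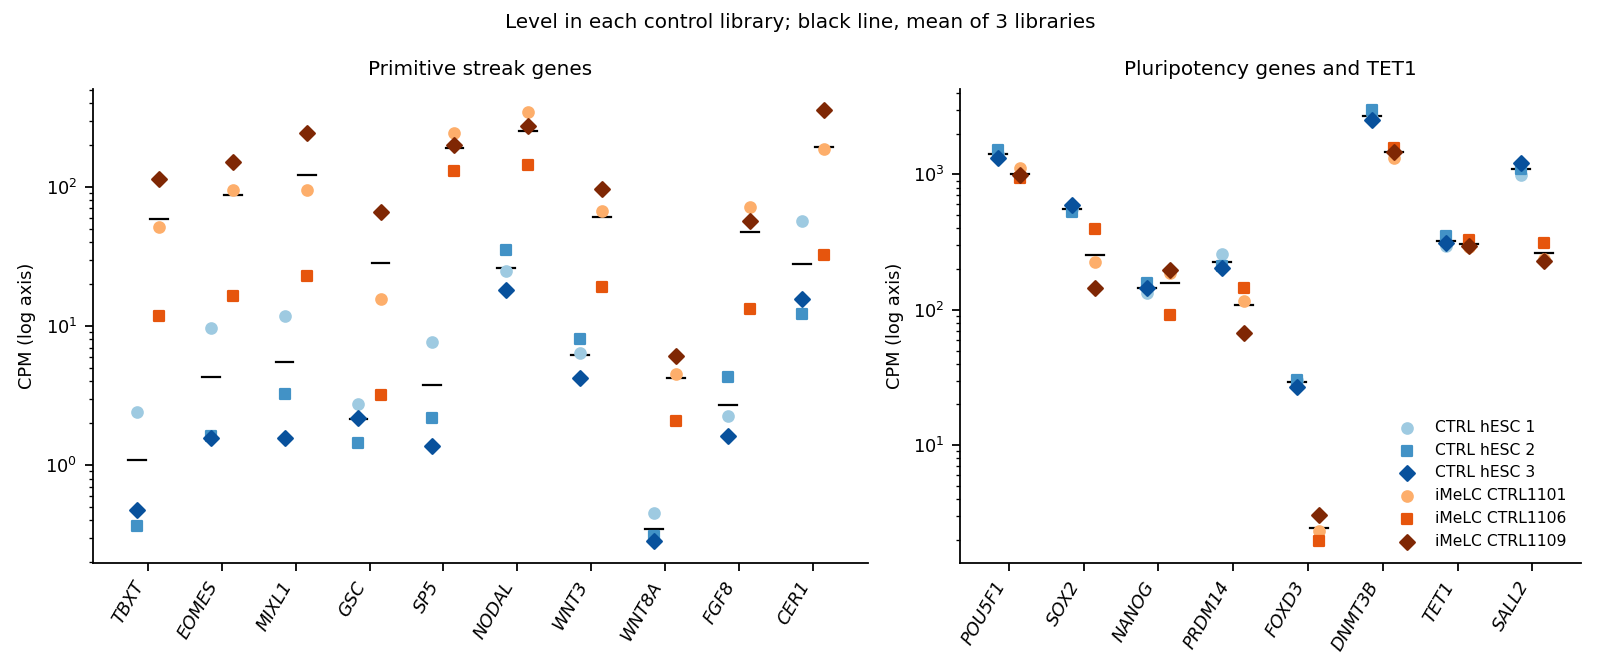
Level of 10 primitive streak genes and 8 pluripotency-associated genes in each control library, in CPM on a log axis, with 1 point per library and hESC and iMeLC side by side. TBXT runs from 0.363 to 2.43 CPM in hESC and from 11.8 to 113 CPM in iMeLC, whereas NANOG runs from 134 to 157 CPM in hESC and from 91.5 to 197 CPM in iMeLC.

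Streak members that did not pass the test also varied between lines. LHX1, an organizer homeobox gene, measured 9.37, 1.24 and 1.37 CPM in hESC and 3.30, 0.363 and 19.9 CPM in iMeLC (log2 fold change 0.99, SE 1.25, adjusted p = 0.556). APLNR, a receptor of early mesoderm, measured 4.23, 0.363 and 0.236 CPM and then 1.09, 0.55 and 8.64 CPM (1.11, SE 1.24, adjusted p = 0.501). TBX6, the T-box factor of paraxial mesoderm, was at 3.72 to 9.97 CPM and then at 1.38 to 3.70 CPM (-1.03, SE 0.50, adjusted p = 0.13). In LHX1 and APLNR the stages overlapped, with CTRL1109 the highest iMeLC library and CTRL1106 the lowest. Without CTRL1109 both changed sign, to -1.15 and -0.98, and without CTRL hESC 1 they stood at 2.63 and 3.56, with no call in any of these fits. NKX1-2, a homeobox gene of the caudal epiblast, had the smallest SE of the factors that rose: 45.8, 48.6 and 42.5 CPM in hESC against 251, 109 and 115 CPM in iMeLC (1.79, SE 0.31, adjusted p = 0.00234).

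SP5, a zinc finger factor that is a direct target of WNT and beta-catenin signalling, had the smallest adjusted p of the streak list. It measured 7.67, 2.18 and 1.37 CPM in CTRL hESC 1, 2 and 3 and 242, 131 and 202 CPM in CTRL1101, CTRL1106 and CTRL1109 iMeLC. Its log2 fold change was 5.70 (SE 0.59, adjusted p = 0.00017), and 6.80 without CTRL hESC 1. The 250 bases upstream of SP5, MIXL1 and DKK1 (a secreted WNT antagonist induced by the pathway) are shown because they are the promoters, among the streak, WNT and NODAL members higher by at least 2-fold, that hold the letters of a TCF/LEF motif. Capitals mark CTTTGAT or CTTTGAA on either strand and AATCCACA (the FOXH1 motif) on either strand; in SP5 the FOXH1 letters overlap those of a TCF/LEF match. The sequences are RefSeq's on GRCh38.p14, written 5′ to 3′ along the strand of the gene, at chr2:170715087-170715336, chr1:226223414-226223663 and chr10:52314031-52314280, all on the plus strand.
SP5: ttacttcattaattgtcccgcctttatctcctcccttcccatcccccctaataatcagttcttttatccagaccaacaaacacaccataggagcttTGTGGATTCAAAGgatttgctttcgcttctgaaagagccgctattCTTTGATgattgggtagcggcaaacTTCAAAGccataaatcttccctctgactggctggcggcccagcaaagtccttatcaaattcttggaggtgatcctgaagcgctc
MIXL1: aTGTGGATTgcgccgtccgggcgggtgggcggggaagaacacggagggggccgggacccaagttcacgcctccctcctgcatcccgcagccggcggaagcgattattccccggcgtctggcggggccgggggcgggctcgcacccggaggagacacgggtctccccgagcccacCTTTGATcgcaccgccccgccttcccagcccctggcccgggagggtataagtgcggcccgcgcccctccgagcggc
DKK1: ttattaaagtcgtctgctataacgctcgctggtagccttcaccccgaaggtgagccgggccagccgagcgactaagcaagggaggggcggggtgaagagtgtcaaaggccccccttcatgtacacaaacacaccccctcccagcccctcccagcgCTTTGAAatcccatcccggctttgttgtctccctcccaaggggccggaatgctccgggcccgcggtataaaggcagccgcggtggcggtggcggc

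The TCF/LEF letters start at positions -148, -109 and -84 from the annotated start of SP5, at -76 of MIXL1 and at -95 of DKK1, and the FOXH1 letters at -154 of SP5 and -249 of MIXL1. Either TCF/LEF form was found in 6.03% of all 27305 RefSeq promoters and in 3.77% of the 12813 whose gene was tested. Among genes higher by at least 2-fold the share was 3.86% of 1968 promoters, and among those lower by at least 2-fold 3.76% of 904, so the letters were about as common in both. Of the 39 WNT, 17 streak and 21 NODAL members with a promoter in the table, 2, 3 and 0 held them. AATCCACA was found in 0.336% of promoters of tested genes and the T-box letters TCACACCT in 0.609%. A match is a description of letters in this window and says nothing of a site in use.

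WNT pathway genes went both ways. Of 58 tested members, 19 rose (16 by at least 2-fold) and 11 fell (6 by at least 2-fold). Over all genes tested 25.7% were higher and 16.3% lower, and 13.0% and 8.74% were so by at least 2-fold. The counts of the list are not far above those shares, except for genes higher by at least 2-fold. The median log2 fold change of the list was 0.28, or -0.07 under upper-quartile scaling. With a trend on gene features taken out 4 of the 11 stayed called lower. Of 13 ligands, 4 rose and 3 fell. WNT3, the ligand needed for streak formation, measured 6.38, 8.08 and 4.21 CPM in hESC and 66.9, 19.1 and 97.3 CPM in iMeLC (3.30, SE 0.56, adjusted p = 0.00228). WNT8A rose from 0.283 to 0.451 CPM in hESC to 2.08 to 6.07 CPM in iMeLC (3.6, SE 0.49, adjusted p = 0.000714), and WNT5B and WNT10B rose by 2.65 (SE 0.30) and 3.95 (SE 0.48). WNT4 and WNT8B fell by 2.03 (SE 0.56) and 2.31 (SE 0.41) on the log2 scale. The stages did not overlap in WNT3, WNT8A, WNT5B or WNT10B. WLS, the carrier that takes WNT ligands to the cell surface, measured 2.99, 0.777 and 0.756 CPM in hESC and 56.5, 32.2 and 39.5 CPM in iMeLC (4.85, SE 0.51, adjusted p = 0.000188). WLS stood at 5.84 without CTRL hESC 1 and WNT10B at 3.32 without CTRL1101 iMeLC. WNT4 was not called without CTRL hESC 1 or 3 (adjusted p = 0.0777 and 0.0782) or with a trend on gene features taken out (adjusted p = 0.0562), and WNT3 was not called by limma-voom (adjusted p = 0.0565). The exons of WLS overlap the antisense gene GNG12-AS1, and without the strand setting of the counting their reads cannot be told apart.

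Among 17 WNT receptors and co-receptors 6 rose and 5 fell. The co-receptor LRP5 rose from 42.8, 41.2 and 33.1 CPM to 115, 108 and 108 CPM (1.5, SE 0.12, adjusted p = 4.41e-05), and ROR2, a receptor of non-canonical WNT, rose by 1.40 (SE 0.23). The Frizzled receptors FZD7 and FZD8 fell by 0.90 (SE 0.20) and 1.26 (SE 0.20), and ROR1 by 0.81 (SE 0.14). Of 9 transducers 3 rose and none fell. LEF1, the nuclear partner of beta-catenin, measured 2.65, 1.29 and 1.80 CPM in hESC and 30.6, 6.93 and 12.6 CPM in iMeLC (3.13, SE 0.57, adjusted p = 0.00306), whereas CTNNB1, beta-catenin itself, was at 329 to 386 CPM and then at 398 to 462 CPM (0.24, SE 0.10, adjusted p = 0.102). TCF7 rose by 0.57 (SE 0.11) and AXIN1, a scaffold of the destruction complex, by 0.75 (SE 0.12). The LEF1 change was 2.32 without CTRL1101 iMeLC, its adjusted p was 0.0698 with limma-voom, and it overlaps LEF1-AS1 on the other strand. With a trend on transcript length, GC content and exon number taken out, FZD7 and FZD8 stood at -0.07 and -0.04 and were not called, and under upper-quartile scaling TCF7 stood at 0.22 (adjusted p = 0.099).

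Of the 13 targets and feedback genes of WNT signalling 6 rose and none fell. Besides SP5 these include NKD1, which restrains Dishevelled, at 17.4, 13.9 and 18.1 CPM in hESC and 84.7, 27.2 and 48.2 CPM in iMeLC (1.70, SE 0.37, adjusted p = 0.00729), and RNF43, the ubiquitin ligase that removes Frizzled receptors (1.73, SE 0.34, adjusted p = 0.00448). DKK1 measured 1.69, 0.155 and 0.378 CPM in hESC and 5.07, 2.52 and 22.1 CPM in iMeLC (3.77, SE 1.02, adjusted p = 0.0191). That call was lost without CTRL hESC 2, CTRL hESC 3 or CTRL1109 iMeLC (adjusted p = 0.0645, 0.0854 and 0.0528), and the change was 5.23 without CTRL hESC 1 and 2.34 without CTRL1109. AXIN2, the feedback gene most used as a WNT readout, measured 92.4, 117 and 87.0 CPM in hESC and 161, 109 and 104 CPM in iMeLC, which overlap (0.34, SE 0.19, adjusted p = 0.192). Of 6 secreted antagonists 3 fell and none rose: SFRP1, which binds WNT ligands, was at 501, 311 and 506 CPM in hESC and at 21.1, 28.6 and 35.9 CPM in iMeLC (-3.94, SE 0.26, adjusted p = 2.24e-05). DKK3 fell by 1.07 (SE 0.21) on the log2 scale, while SFRP2 was at 184 to 277 CPM in hESC and 221 to 307 CPM in iMeLC (0.18, SE 0.17, adjusted p = 0.425).

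**Figure D3:**
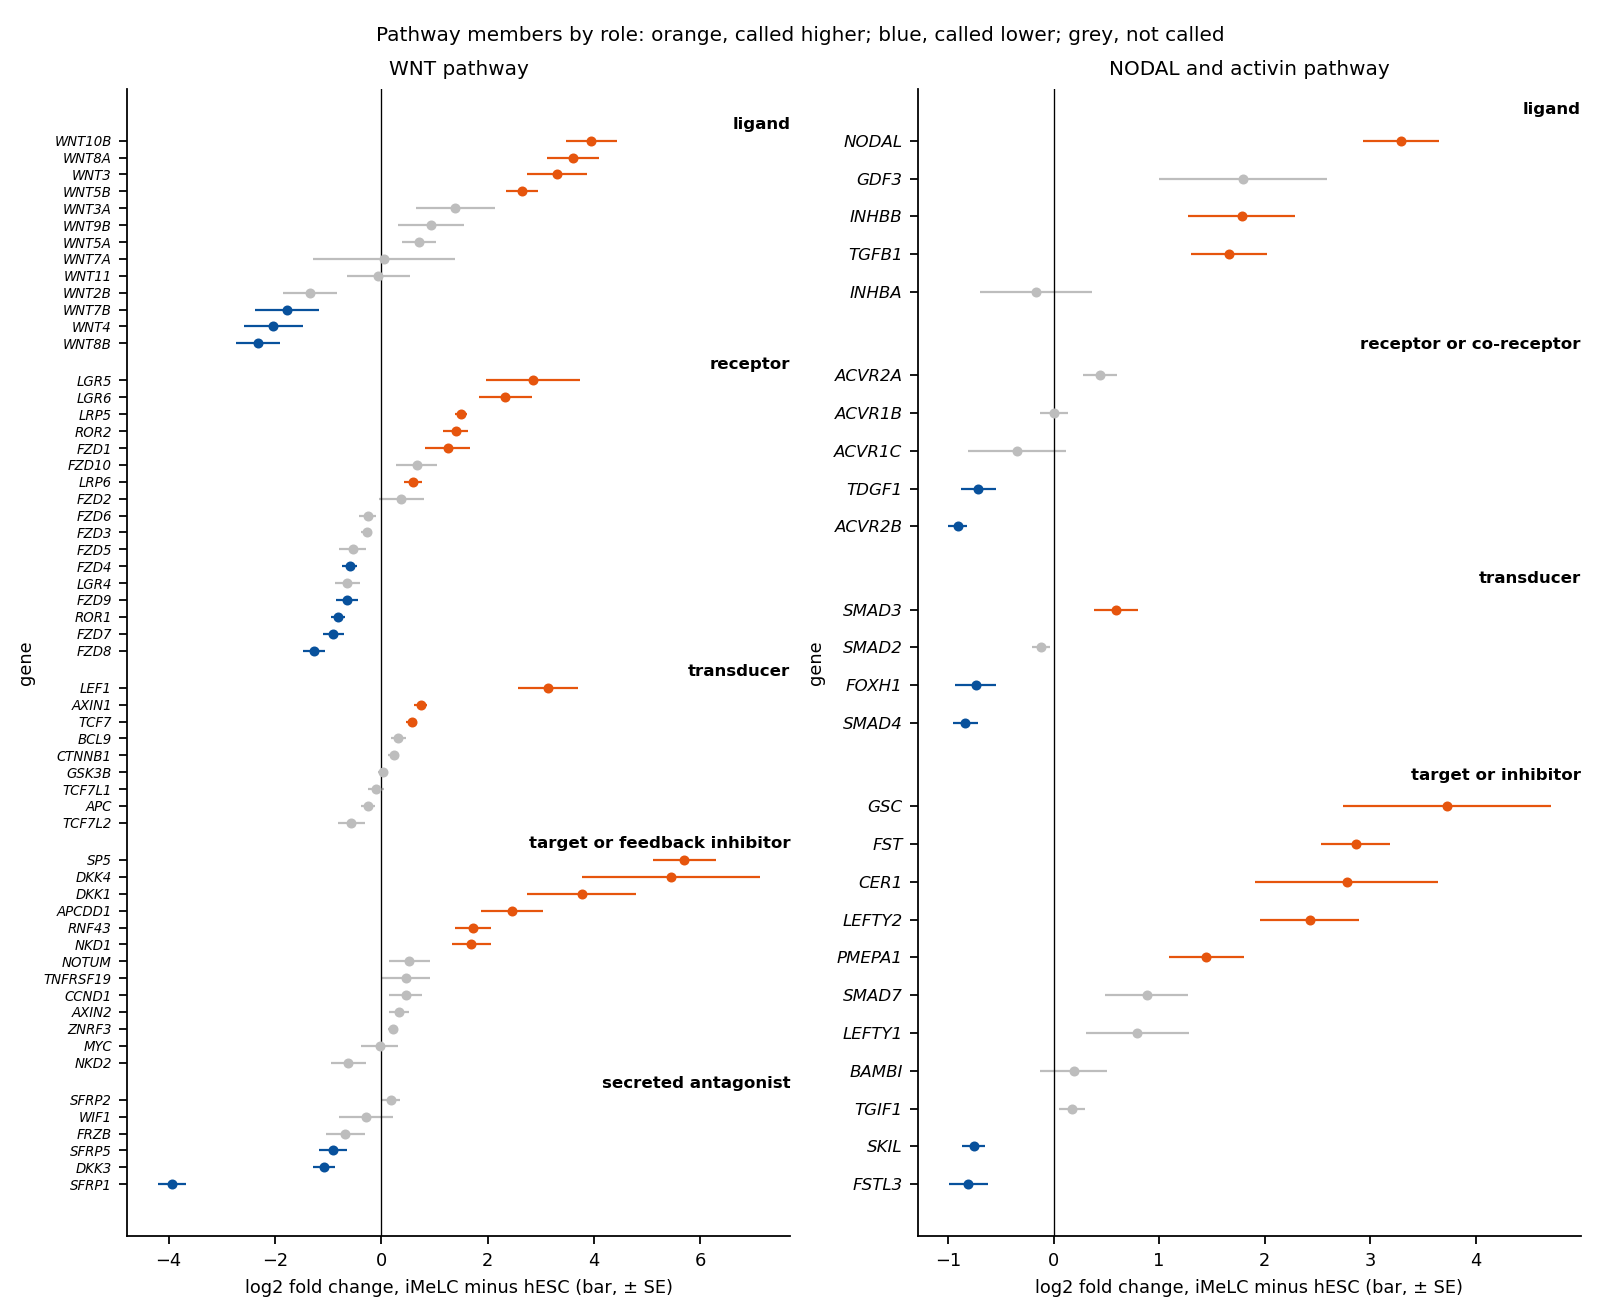
Log2 fold change (iMeLC minus hESC) with its SE for tested members of the WNT and the NODAL and activin pathways, ordered by role; 1 NODAL pathway member is not drawn. Points right of 0 are higher in iMeLC; SP5 stands at 5.70, NODAL at 3.29 and SFRP1 at -3.94.

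In the NODAL and activin pathway, 3 of 5 ligands and 6 of 12 targets and inhibitors rose, while 2 of 5 receptors and 2 of 4 transducers fell. Of 26 tested members 10 rose, 9 of them by at least 2-fold, and 6 fell, none by 2-fold, with a median of 0.52. NODAL, the ligand itself, measured 24.9, 35.0 and 18.0 CPM in CTRL hESC 1, 2 and 3 and 345, 144 and 272 CPM in CTRL1101, CTRL1106 and CTRL1109 iMeLC (3.29, SE 0.36, adjusted p = 0.000231). All iMeLC libraries lay above all hESC libraries, and the gene shares exon positions with AC022532.1 on the other strand. TGFB1 rose by 1.66 (SE 0.36), while GDF3, a related ligand, was at 15.1, 25.8 and 8.88 CPM and then at 16, 22.1 and 134 CPM, high in CTRL1109 alone (1.79, SE 0.80, adjusted p = 0.105). Among 5 receptors 2 fell and none rose: ACVR2B, a type II activin receptor, from 543 to 613 CPM to 300 to 313 CPM (-0.91, SE 0.09, adjusted p = 0.000124), and the co-receptor TDGF1 (-0.72, SE 0.17, adjusted p = 0.00979), which has 7 processed pseudogenes. SMAD4, the shared partner of receptor SMADs, fell by 0.83 (SE 0.12), and FOXH1, the forkhead partner of SMAD2, by 0.74 (SE 0.19).

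Targets and inhibitors of NODAL went both ways, with 6 higher and 2 lower. LEFTY2, a feedback inhibitor of NODAL, measured 36.1, 47.2 and 31.0 CPM in hESC and 353, 81.5 and 179 CPM in iMeLC (2.43, SE 0.47, adjusted p = 0.00436). Its neighbour LEFTY1 measured 18.1 to 18.5 CPM in hESC and 38.9, 9.34 and 47.2 CPM in iMeLC, with CTRL1106 below all hESC libraries (0.80, SE 0.49, adjusted p = 0.223). FST (follistatin, which binds activin) was at 32.9, 20.6 and 29.2 CPM and then at 302, 129 and 170 CPM (2.86, SE 0.33, adjusted p = 0.000294). PMEPA1, a target that limits SMAD activation, rose by 1.45 (SE 0.36). CER1, a secreted antagonist of NODAL, BMP and WNT, measured 56.5, 12.1 and 15.7 CPM in hESC and 187, 32.6 and 357 CPM in iMeLC, so CTRL hESC 1 lay above CTRL1106 iMeLC (2.78, SE 0.87, adjusted p = 0.0338). SKIL, a SMAD corepressor that is also a target, fell by 0.75 (SE 0.11).

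Several of these values depended on 1 library. The CER1 call was lost without CTRL hESC 2, CTRL hESC 3, CTRL1101 or CTRL1109 iMeLC (adjusted p = 0.106, 0.128, 0.0578 and 0.0994), and its change was 3.83 without CTRL hESC 1 and 1.93 without CTRL1109. LEFTY2 stood at 1.74 without CTRL1101, and PMEPA1 was not called without CTRL hESC 3 (adjusted p = 0.0598). LEFTY1 was called without CTRL1106 iMeLC (adjusted p = 0.000501), and GDF3 without CTRL1101 iMeLC (adjusted p = 0.0431), but GDF3 stood at 0.16 without CTRL1109 (adjusted p = 0.766). FOXH1 was not called without CTRL hESC 2 or 3 (adjusted p = 0.0769 and 0.0508) and stood at -0.01 with the feature trend taken out. Limma-voom called 4 NODAL members and 11 WNT members higher, in place of 10 and 19, and 6 and 11 lower.

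The ligands FGF8 and FGF18 rose, and no FGF receptor passed the test. Of 26 FGF and ERK genes 6 rose, 3 of them under every scaling, and 1 fell (median 0.21, or -0.14 under upper-quartile scaling), with 2 of 7 ligands higher and 0 of 4 receptors called. FGF8, which drives cells through the streak, measured 2.26, 4.30 and 1.61 CPM in hESC and 72.2, 13.2 and 56.9 CPM in iMeLC (4.13, SE 0.66, adjusted p = 0.00165). FGF18 measured 0.395, 0.829 and 0.236 CPM and then 26.1, 4.48 and 6.19 CPM (4.66, SE 0.83, adjusted p = 0.00283). FGF17 was at 9.14, 1.29 and 4.21 CPM in hESC and 11.4, 5.85 and 64.0 CPM in iMeLC, which overlap (2.48, SE 0.96, adjusted p = 0.0699), and FGF4, a ligand of pluripotent cells, at 19.6, 33.9 and 19.3 CPM and then 10.02, 6.27 and 65.3 CPM (0.16, SE 0.78, adjusted p = 0.882). The FGF4 difference was carried by CTRL1109: without it the log2 fold change was -1.61 (adjusted p = 0.00855). The FGF18 change was 3.42 without CTRL1101 iMeLC and 5.31 without CTRL hESC 2, and FGF17 was called without CTRL1106 iMeLC (adjusted p = 0.0252). Limma-voom called 2 members higher and 0 lower, without FGF8 and FGF18 (adjusted p = 0.0653 and 0.103).

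Readouts of ERK signalling were mixed. DUSP6, the ERK phosphatase used as a readout, measured 24.6, 17.7 and 11.4 CPM in hESC and 29.6, 5.75 and 42.3 CPM in iMeLC (0.53, SE 0.61, adjusted p = 0.513), lowest of all libraries in CTRL1106 and called without that library (adjusted p = 0.0351). Without CTRL1109 DUSP6 stood at -0.05 (adjusted p = 0.953). SPRY4, a feedback inhibitor, measured 185, 246 and 154 CPM and then 257, 71.2 and 194 CPM (-0.17, SE 0.40, adjusted p = 0.764), and stood at 0.17 without CTRL1106 (adjusted p = 0.54). In both genes CTRL1106 lay below every hESC library while the other 2 iMeLC libraries lay within or above their range. PHLDA1 rose by 1.16 (SE 0.21, adjusted p = 0.00337).

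BMP receptors rose, and 3 of 9 BMP targets fell. Of 24 BMP pathway genes 6 rose and 4 fell (median 0.34, or -0.01 under upper-quartile scaling). The 4 tested receptors all rose, among them BMPR1A from 97.7 to 103 CPM in hESC to 151 to 175 CPM in iMeLC (0.73, SE 0.09, adjusted p = 0.000523) and BMPR1B from 0.567 to 1.04 CPM to 2.94 to 6.34 CPM (2.65, SE 0.40, adjusted p = 0.00115). Of the 4 receptors 1 rose by at least 2-fold, 3 were called higher under every scaling, and 3 stayed called with the feature trend taken out. Of 9 targets 1 rose and 3 fell. ID1, an immediate target that blocks basic helix-loop-helix factors, was at 184, 118 and 244 CPM in hESC and at 64.3, 44.7 and 59.9 CPM in iMeLC (-1.70, SE 0.26, adjusted p = 0.00126), and ID4 fell by 2.31 (SE 0.27). The antagonist NOG (noggin) rose from 0.466 to 1.23 CPM to 2.27 to 9.72 CPM (2.76, SE 0.59, adjusted p = 0.00675). BMP4, the ligand later used to induce germ cells, measured 34.4, 24.1 and 30.8 CPM and then 28.5, 20.4 and 15.1 CPM (-0.48, SE 0.24, adjusted p = 0.143), and BMP6 fell by 1.12 (SE 0.29). NOG stood at 2.09 without CTRL1109 iMeLC and was not called by limma-voom (adjusted p = 0.0861), BMP6 was not called without CTRL hESC 2 (adjusted p = 0.0703), and BMP4 was called lower without CTRL1101 iMeLC (adjusted p = 0.0182) and under upper-quartile scaling (-0.84, adjusted p = 0.0185).

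Of 15 NOTCH pathway genes none rose and 3 fell, with a median of -0.23. The feedback regulator NRARP went from 53, 60 and 63.6 CPM to 17.9, 29.1 and 21.2 CPM (-1.37, SE 0.18, adjusted p = 0.000632). LFNG, the glycosyltransferase that modifies NOTCH receptors, fell by 1.22 (SE 0.28). HES3, a repressor of the HES family in no list here, was among the genes that fell most, from 66.5, 66.2 and 130 CPM to 4.0, 10.8 and 1.83 CPM (-3.98, SE 0.63, adjusted p = 0.00158), and stood at -4.95 without CTRL1106 iMeLC. With the feature trend taken out NRARP stood at -0.38 (adjusted p = 0.135).

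Of 13 tested posterior axis genes 7 rose and 1 fell, with a median of 1.79. All 7 are among the 10 transcription factors of the list. The summed level of the list was 251.9, 215.4 and 286 CPM in hESC and 513.9, 272.2 and 413.1 CPM in iMeLC, so CTRL1106 lay within the hESC range. CDX1, a caudal homeobox factor, measured 0.226, 0.259 and 0.0473 CPM in hESC and 6.61, 3.69 and 3.99 CPM in iMeLC (4.76, SE 0.52, adjusted p = 0.000232), and CDX2 0.282, 0.259 and 0.0945 CPM and then 4.96, 2.20 and 1.53 CPM (3.78, SE 0.62, adjusted p = 0.00193). Neither gene overlapped between the stages. GBX2, a homeobox gene of the posterior epiblast, rose from 3.39, 4.46 and 2.83 CPM to 38.2, 34.9 and 18.3 CPM (3.10, SE 0.32, adjusted p = 0.000162). Here CTRL1101 was the highest iMeLC library in 6 of the 7 genes that rose, in contrast to the streak list, in which CTRL1109 was highest most often. CDX2 stood at 3.11 without CTRL1101.

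Of the 39 HOX genes 15 had enough counts to be tested, 7 of them rose, 3 under every scaling, and none fell (median 2.20). CTRL1101 was the highest iMeLC library in 13 of the 15. HOXA11, a posterior gene of the A cluster, had 2 counts in the hESC libraries together and 213 in the iMeLC libraries together, a ratio per library depth of 22.9 with a 95% counting interval of 6.25 to 190. It was not called without CTRL hESC 2 or 3 (adjusted p = 0.0948 and 0.108) and stood at 8.66 without CTRL hESC 1, which held both hESC counts. Limma-voom called 1 HOX gene higher, in place of 7.

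Endoderm genes rose in part and unequally between lines. Of 18 tested members 9 rose and 1 fell (median 2.12), of which 4 (EOMES, GSC, CER1 and FOXA2) are also streak members. GATA4, a zinc finger factor of endoderm and heart, measured 1.30, 0.518 and 1.04 CPM in hESC and 8.88, 3.52 and 21.8 CPM in iMeLC (3.58, SE 0.69, adjusted p = 0.00419). FOXA2, the forkhead factor of endoderm and axial mesoderm, measured 2.20, 1.86 and 1.13 CPM and then 6.05, 2.0 and 17.2 CPM, with CTRL1106 inside the hESC range (2.29, SE 0.72, adjusted p = 0.034). CXCR4, a chemokine receptor used to sort endoderm, rose by 1.94 (SE 0.52). SOX17, the factor shared by endoderm and human germ cells, measured 8.75, 1.24 and 1.94 CPM in hESC and 9.11, 2.93 and 24.9 CPM in iMeLC (1.64, SE 0.88, adjusted p = 0.17), and GATA6 7.22, 0.881 and 1.80 CPM and then 14.3, 2.02 and 49.3 CPM (2.74, SE 1.11, adjusted p = 0.0803). For both, CTRL hESC 1 lay above CTRL1106 iMeLC.

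The endoderm calls leaned on single libraries. FOXA2 was not called without CTRL hESC 1, 2 or 3 or CTRL1109 iMeLC (adjusted p = 0.0733, 0.0906, 0.127 and 0.106), stood at 1.18 without CTRL1109, and had an adjusted p = 0.0529 under upper-quartile scaling. CXCR4 was not called without CTRL hESC 2 or 3 (adjusted p = 0.0682 and 0.0713) and stood at 1.25 without CTRL1109, where GATA4 stood at 2.67. SOX17 was called without CTRL hESC 1 (adjusted p = 0.0434) and GATA6 without CTRL1106 iMeLC (adjusted p = 0.0149), whereas without CTRL1109 they stood at 0.57 and 1.28 (adjusted p = 0.6 and 0.321). Limma-voom called 2 endoderm members higher, in place of 9.

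Of 17 later mesoderm genes 3 rose, 1 of them under every scaling, and none fell (median 0.84). The largest of these by level was KDR, the VEGF receptor of early mesoderm and endothelium, at 118, 146 and 123 CPM in hESC and at 180, 208 and 214 CPM in iMeLC (0.64, SE 0.12, adjusted p = 0.00313), but it was not called under upper-quartile scaling (0.29, adjusted p = 0.0793) or with the feature trend taken out (0.16, adjusted p = 0.328). TWIST1, a factor of mesenchymal mesoderm, went from 2.09, 1.76 and 0.992 CPM to 12.9, 3.59 and 4.47 CPM (2.12, SE 0.54, adjusted p = 0.0151), and stood at 1.29 without CTRL1101 and lost its call without CTRL hESC 3 (adjusted p = 0.0651) and with limma-voom (adjusted p = 0.112). HAND1, a factor of extraembryonic and lateral mesoderm, was at 5.47, 0 and 0.378 CPM in hESC and at 0.0702 to 0.282 CPM in iMeLC (-3.28, SE 1.36, adjusted p = 0.0875) and was called lower without CTRL hESC 2 (adjusted p = 0.0306). Without CTRL hESC 1, which holds nearly all of its hESC counts, HAND1 stood at 0.08 (adjusted p = 0.969).

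Core pluripotency genes fell modestly and not all together. Of 22 tested members 15 fell, 5 of them by at least 2-fold, and 1 rose, with a median of -0.71. Of the 10 transcription factors 7 fell, and of the 8 RNA-binding or chromatin members 7 fell. POU5F1 (OCT4) measured 1412, 1526 and 1330 CPM in CTRL hESC 1, 2 and 3 and 1108, 944 and 991 CPM in CTRL1101, CTRL1106 and CTRL1109 iMeLC (-0.49, SE 0.10, adjusted p = 0.00685). The exons of POU5F1 overlap TCF19 on the other strand, and it has 5 processed pseudogenes that may take part of its reads. SOX2, its partner and a gene kept on in neural fate, measured 558, 526 and 594 CPM and then 225, 394 and 145 CPM (-1.13, SE 0.31, adjusted p = 0.0203). NANOG, which is kept on in the streak, measured 134, 157 and 145 CPM and then 187, 91.5 and 197 CPM (0.12, SE 0.26, adjusted p = 0.723), with 8 processed pseudogenes that may take part of its reads. The 3 factors thus gave 3 patterns: POU5F1 lower without overlap, SOX2 lower with its smallest drop in CTRL1106, and NANOG above hESC in CTRL1101 and CTRL1109 and below it in CTRL1106. The lines with the highest TBXT, CTRL1109 and CTRL1101, had the lowest SOX2.

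PRDM14, a repressor that guards naive and germline gene programmes, measured 260, 211 and 204 CPM in hESC and 115, 144 and 67.0 CPM in iMeLC (-1.05, SE 0.25, adjusted p = 0.0118). FOXD3, a forkhead factor of epiblast and neural crest, fell most of the list, from 30.2, 30.1 and 27.0 CPM to 2.30, 1.95 and 3.06 CPM (-3.57, SE 0.20, adjusted p = 1.15e-05), and its exons overlap FOXD3-AS1. UTF1, a chromatin-bound factor of undifferentiated cells, was at 23.3, 72.8 and 36.1 CPM and then at 12.6, 13.7 and 4.73 CPM (-2.09, SE 0.50, adjusted p = 0.0111). The RNA-binding protein LIN28A, a blocker of let-7 processing, fell by 0.70 (SE 0.13), its partner TRIM71 by 1.08 (SE 0.12) and L1TD1 by 0.97 (SE 0.14). GAL, the galanin neuropeptide, was the member that rose, from 47.2, 59.4 and 30.4 CPM to 340, 253 and 589 CPM (3.11, SE 0.36, adjusted p = 0.000297). ZFP42 (REX1) was at 297 to 340 CPM in hESC and 208 to 314 CPM in iMeLC (-0.35, SE 0.16, adjusted p = 0.104).

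SOX2 was not called without CTRL hESC 1, 2 or 3 (adjusted p = 0.0626, 0.0526 and 0.0747), PRDM14 not without CTRL hESC 1 (adjusted p = 0.0547), and UTF1 stood at -1.49 without CTRL hESC 2. NANOG was called higher without CTRL1106 iMeLC (adjusted p = 0.0323) and stood at -0.05 and -0.10 without CTRL1101 and CTRL1109 and at -0.23 under upper-quartile scaling. With the feature trend taken out SOX2, SALL4, UTF1 and ZSCAN10 were at -0.53, -0.28, -1.13 and -0.32 and were not called (adjusted p = 0.218, 0.0945, 0.107 and 0.0629). ZFP42 was called lower without CTRL1101 iMeLC (adjusted p = 0.00292) and under upper-quartile scaling (adjusted p = 0.00478).

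Within both the primed and the naive list, genes went both ways. Of 18 primed-state genes 5 fell and 1 rose (median -0.27). With the feature trend taken out 2 of the 5 stayed called lower (median 0.05). SALL2, a spalt-family factor of primed cells, went from 986, 1087 and 1204 CPM to 238, 314 and 230 CPM (-2.07, SE 0.15, adjusted p = 2.97e-05), and the surface protein CD24 from 2114, 2124 and 2350 CPM to 683, 978 and 511 CPM (-1.60, SE 0.22, adjusted p = 0.000696). THY1 (CD90) fell by 1.03 (SE 0.21) and stood at -0.49 with the feature trend taken out (adjusted p = 0.104). Of 15 naive-state genes 5 fell and 2 rose (median -0.56): KLF5 rose from 8.13 to 8.51 CPM to 27.4 to 33.0 CPM (1.85, SE 0.13, adjusted p = 3e-05) and the nuclear receptor NR5A2 by 1.04 (SE 0.24), while ZFP57, which protects imprints, fell by 1.82 (SE 0.34). KLF4 was at 10.9 to 13.8 CPM and then 7.94 to 10.5 CPM (-0.47, SE 0.18, adjusted p = 0.0714), and was called lower without CTRL1101 iMeLC (adjusted p = 0.0192) and under upper-quartile scaling (adjusted p = 0.0067).

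Few markers of other fates passed the test. Of 14 neuroectoderm genes 2 fell and 1 rose (median -0.33), and their summed level was 500 to 644.3 CPM in hESC and 435.3 to 910.8 CPM in iMeLC. DCX, doublecortin of migrating neurons, fell from 15.1, 18.4 and 19.1 CPM to 2.66, 4.82 and 3.62 CPM (-2.25, SE 0.25, adjusted p = 0.000227), and TUBB3, a neuronal tubulin, rose from 2.50 to 3.83 CPM to 10.04 to 14.4 CPM (1.78, SE 0.25, adjusted p = 0.000845). POU3F2 fell by 1.78 (SE 0.43), without a call when CTRL hESC 1 was left out (adjusted p = 0.0546) or the feature trend taken out (adjusted p = 0.0777). PAX6 and SOX1, defining neural factors, stood at or under 1.19 CPM in hESC and 1.83 CPM in iMeLC and did not pass the test (adjusted p = 0.0999 and 0.678), although PAX6 was called lower under upper-quartile scaling (adjusted p = 0.0408) and SOX1 changed sign, from 0.41 to -0.65, without CTRL1106 iMeLC.

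Of 18 primordial germ cell genes 2 rose and 1 fell (median -0.29). Those that rose were EOMES, which is needed for human germ cell competence, and PRDM1 (BLIMP1), at 2.88, 0.933 and 1.70 CPM in hESC and 4.88, 5.21 and 11.2 CPM in iMeLC (1.95, SE 0.48, adjusted p = 0.0125), whose call was lost without CTRL hESC 3 (adjusted p = 0.0557). PRDM14 was the member that fell. TFAP2C, an AP-2 factor of germ cells and trophectoderm, measured 30.1, 31.8 and 30.1 CPM in hESC and 70.7, 46.4 and 23.8 CPM in iMeLC, with CTRL1109 below and the other 2 lines above hESC (0.61, SE 0.33, adjusted p = 0.171). It was called higher without CTRL1109 (adjusted p = 0.00778). Among 16 amnion and trophectoderm genes 2 rose and 1 fell (median -0.57). GATA3, a defining factor of both, was at 2.37, 0.985 and 0.142 CPM in hESC and at 2.33, 0.398 and 0.991 CPM in iMeLC (0.11, SE 0.88, adjusted p = 0.934), a difference that changed sign without CTRL hESC 3 (-0.42) or CTRL1101 iMeLC (-0.75).

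Mesenchymal genes rose and the epithelial list split. Of 18 tested mesenchymal members 13 rose and none fell, with a median of 2.11. CDH2 (N-cadherin) measured 22.5, 17.4 and 16.6 CPM in hESC and 266, 123 and 247 CPM in iMeLC (3.49, SE 0.30, adjusted p = 6.96e-05), and VIM (vimentin) 198, 150 and 89.1 CPM and then 1994, 536 and 719 CPM (2.89, SE 0.52, adjusted p = 0.00298). Both overlap genes on the other strand. The repressor ZEB2 rose from 3.78, 3.68 and 1.28 CPM to 52.2, 12.6 and 12.8 CPM (3.16, SE 0.67, adjusted p = 0.0065), and PRRX1, a homeobox factor of mesenchyme, from 0.677, 1.14 and 0.567 CPM to 20.3, 3.98 and 10.1 CPM (3.85, SE 0.63, adjusted p = 0.00181). FN1 (fibronectin) rose by 2.10 (SE 0.24). SNAI1, the repressor that starts the transition in the streak, measured 4.04 to 5.92 CPM in hESC and 5.97 to 12.4 CPM in iMeLC and did not pass the test (0.69, SE 0.32, adjusted p = 0.119), but was called with the feature trend taken out (1.08, adjusted p = 0.034). CTRL1106 was the lowest iMeLC library in all 18 tested members and CTRL1101 the highest in 15, and CTRL hESC 1 was the highest hESC library in 14. Without CTRL1101 the changes of VIM, ZEB2 and PRRX1 were 2.07, 2.10 and 3.11. Limma-voom called 6 members higher, in place of 13, without ZEB2 and PRRX1 (adjusted p = 0.0842 and 0.0766).

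Of 33 epithelial genes 12 rose and 10 fell (median 0.16, or -0.18 under upper-quartile scaling), with 4 of the 12 called higher under every scaling. With the feature trend taken out 6 of the 12 stayed called higher and 3 of the 10 stayed called lower (median -0.08). CDH1 (E-cadherin), which is lost late in the transition, measured 232, 249 and 228 CPM in hESC and 342, 372 and 278 CPM in iMeLC (0.49, SE 0.12, adjusted p = 0.0132), and EPCAM 123, 172 and 95.4 CPM and then 238, 235 and 175 CPM (0.73, SE 0.22, adjusted p = 0.0269). Neither was called under upper-quartile scaling (0.14 and 0.38, adjusted p = 0.36 and 0.161) or with the feature trend taken out (adjusted p = 0.212 and 0.455), and EPCAM was also lost without CTRL hESC 1 or 3 or CTRL1101 or CTRL1106 iMeLC (adjusted p = 0.0827, 0.0718, 0.0752 and 0.0713). Tight-junction genes went both ways: OCLN (occludin) rose from 31.2 to 35.0 CPM to 62.3 to 109 CPM (1.30, SE 0.20, adjusted p = 0.00124), while CLDN3 fell from 32.0, 32.7 and 34.3 CPM to 8.41, 16.4 and 5.68 CPM (-1.70, SE 0.35, adjusted p = 0.00553) and CLDN4 by 1.77 (SE 0.31). With the feature trend taken out CLDN3 and CLDN4 were at -0.77 and -0.92 and were not called (adjusted p = 0.115 and 0.0502). KRT8 (keratin 8) rose by 1.46 (SE 0.23), but has 50 processed pseudogenes and shares exon positions with KRT18.

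Genes of the extracellular matrix rose. Of 24 tested collagen and laminin chains 17 rose and 1 fell (median 1.16). Of the 17, 13 were called higher under every scaling, and 13 stayed called with the feature trend taken out (median 0.99). COL18A1, a collagen of basement membranes, measured 249, 226 and 202 CPM in hESC and 1376, 726 and 632 CPM in iMeLC (2.01, SE 0.28, adjusted p = 0.000797), and COL4A1, the main basement membrane chain, 83.5, 91.2 and 81.3 CPM and then 390, 234 and 273 CPM (1.81, SE 0.18, adjusted p = 0.00016). The fibrillar chains COL1A2, COL3A1 and COL5A1 rose by 2.0 (SE 0.31), 3.54 (SE 0.76) and 2.53 (SE 0.39), with COL3A1 at 4.87 without CTRL hESC 1 and 2.86 without CTRL1101. MMP2, a matrix protease, rose by 2.79 (SE 0.36). CTRL1101 was the highest iMeLC library in 15 of the 24 tested chains.

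Fibroblasts, which may serve as feeder cells in hESC culture, express many of these genes too. Of 16 tested fibroblast markers 10 rose and 1 fell (median 1.97), and their summed level was 535 to 825 CPM in hESC and 884 to 1912 CPM in iMeLC. LUM (lumican) and FAP, members that did not pass the test (adjusted p = 0.808 and 0.305), stayed at or under 0.846 CPM in hESC and 0.529 CPM in iMeLC. LUM was called higher without CTRL hESC 1 (log2 fold change 3.83, adjusted p = 0.0468) and stood at -0.13 and -0.24 without CTRL hESC 2 and 3. POSTN (periostin) went from 0.331 to 0.564 CPM to 2.66 to 4.91 CPM. The part of other cells in the mesenchymal and matrix values was not tested. Of 7 tested endothelial and blood markers 2 rose and 1 fell, and their summed level was 6.14 to 7.11 CPM in hESC and 15.1 to 37.0 CPM in iMeLC. TEK, an angiopoietin receptor, rose from 1.75, 1.92 and 2.22 CPM to 16.6, 10.3 and 13 CPM (2.76, SE 0.24, adjusted p = 7.97e-05).

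**Figure D4:**
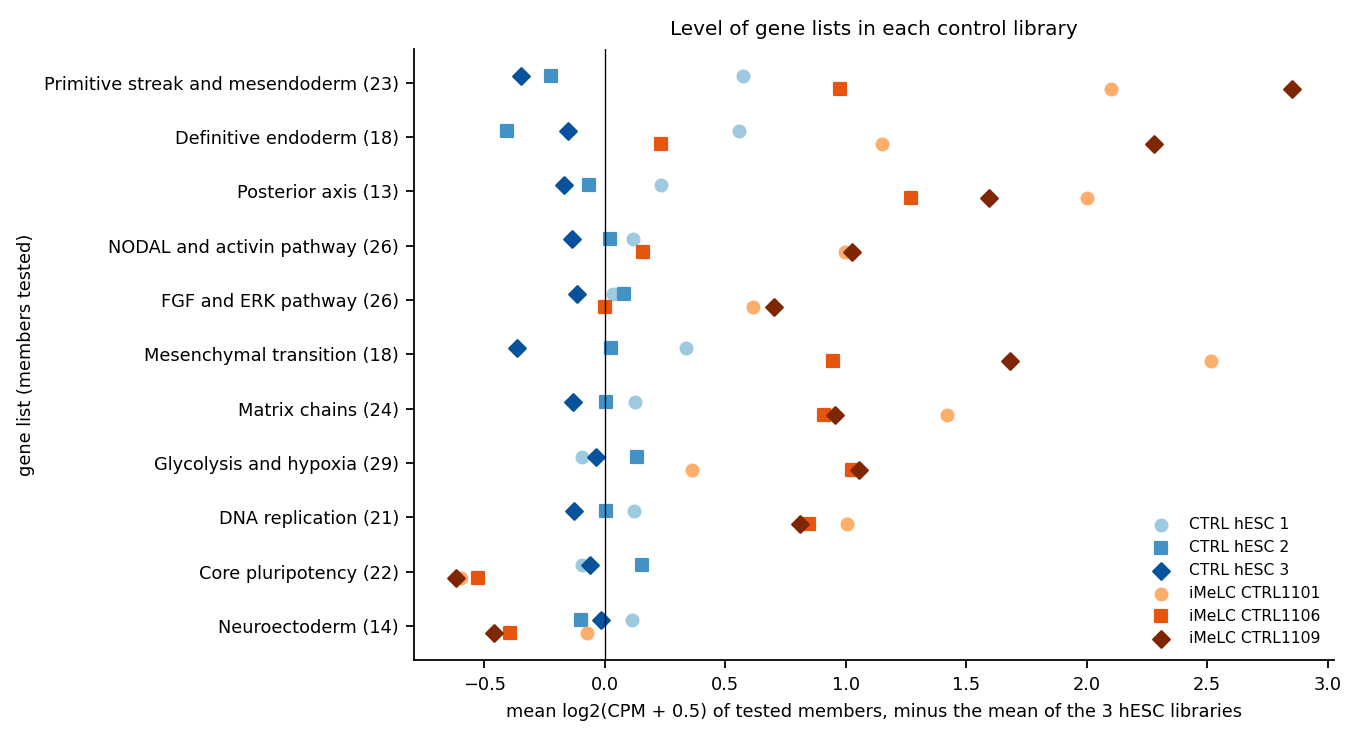
Mean of log2(CPM + 0.5) over the tested members of gene lists in each library, as the difference from the hESC mean of that list. In the streak list CTRL1109 lies highest and CTRL1106 lowest of the iMeLC libraries, in the mesenchymal list CTRL1101 lies highest and CTRL1106 lowest, and in the glycolysis and hypoxia list CTRL1101 lies lowest.

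The TET genes, whose products oxidise 5-methylcytosine, are of interest because the series is about the catalytic domain of TET1. TET1 measured 298, 348 and 313 CPM in CTRL hESC 1, 2 and 3 and 290, 325 and 296 CPM in CTRL1101, CTRL1106 and CTRL1109 iMeLC, which overlap (-0.07, SE 0.10, adjusted p = 0.575), but it was called lower under upper-quartile scaling (-0.42, adjusted p = 0.0102). TET2 went from 15.2 to 16.2 CPM to 6.87 to 11.8 CPM (-0.79, SE 0.21, adjusted p = 0.0179), and TET3 from 120, 106 and 103 CPM to 76.6, 70.2 and 60.03 CPM (-0.67, SE 0.12, adjusted p = 0.00267). TET2 was not called without CTRL hESC 1, 2 or 3 (adjusted p = 0.074, 0.0687 and 0.0568), and TET3 was at -0.28 with the feature trend taken out (adjusted p = 0.104). Of 14 genes of the demethylation list 3 rose and 4 fell (median -0.18), TDG, the glycosylase that excises oxidised cytosines, rising from 39.0, 35.2 and 23.9 CPM to 104, 84.3 and 85.8 CPM (1.48, SE 0.19, adjusted p = 0.000455).

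Among DNA methylation genes DNMT1 and UHRF1 rose and DNMT3B fell. Of 11 tested genes 4 rose and 4 fell (median -0.06). With the feature trend taken out all 4 higher calls and 2 of the 4 lower calls stayed (median 0.26). Of the 8 maintenance or reader genes 3 rose and 2 fell, so that group went both ways. DNMT1, the maintenance methyltransferase, rose from 232, 210 and 210 CPM to 547, 494 and 487 CPM (1.23, SE 0.09, adjusted p = 4.17e-05), and UHRF1, which brings it to replicated DNA, from 49.4, 40.3 and 32.8 CPM to 232, 146 and 146 CPM (2.10, SE 0.22, adjusted p = 0.000202). DNMT3B, a de novo methyltransferase abundant in primed cells, fell from 2591, 2985 and 2539 CPM to 1326, 1561 and 1468 CPM (-0.90, SE 0.11, adjusted p = 0.000454), and DNMT3A fell by 0.47 (SE 0.13). DNMT3A was not called without CTRL hESC 1, 2 or 3 (adjusted p = 0.0786, 0.079 and 0.0535) or with the feature trend taken out (adjusted p = 0.0505). In each of DNMT1, UHRF1 and DNMT3B the stages did not overlap, as in nearly all genes called.

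Of 12 tested genes of Polycomb repressive complex 2, which methylates lysine 27 of histone H3, 7 rose and 3 fell (median 0.34, or -0.01 under upper-quartile scaling). Of the 7, 3 were called higher under every scaling, and 3 stayed called higher with the feature trend taken out. The catalytic subunit EZH2 rose from 32.0, 24.5 and 24.6 CPM to 102, 87.2 and 94.2 CPM (1.80, SE 0.13, adjusted p = 3.54e-05) and EED from 10.1, 8.39 and 8.46 CPM to 39.4, 38.9 and 38.0 CPM (2.11, SE 0.13, adjusted p = 1.51e-05). SUZ12 rose by 0.60 (SE 0.08) but stood at 0.03 with the feature trend taken out (adjusted p = 0.792), and JARID2, an accessory subunit abundant in hESC, fell by 0.55 (SE 0.12). Of 18 imprinted genes 8 fell and none rose (median -0.31). With the feature trend taken out, however, 4 of the 8 stayed called lower and the median was 0.11. SNURF, transcribed from the paternal allele, fell from 4.17 to 4.96 CPM to 1.01 to 1.30 CPM (-1.96, SE 0.25, adjusted p = 0.000501), and CDKN1C, a growth inhibitor, by 1.32 (SE 0.25), the latter at -0.69 with the feature trend taken out (adjusted p = 0.0622).

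Glycolytic and hypoxia-responsive genes were higher. Of 29 tested members 17 rose and 1 fell (median 0.89). LDHA, which turns pyruvate to lactate, measured 152, 174 and 141 CPM in hESC and 539, 848 and 822 CPM in iMeLC (2.24, SE 0.18, adjusted p = 5.69e-05), with 6 processed pseudogenes. The phosphofructokinase PFKP rose from 39.4, 45.6 and 41.4 CPM to 198, 190 and 159 CPM (2.11, SE 0.12, adjusted p = 1.07e-05) and the glucose carrier SLC2A3 by 1.5 (SE 0.25). Among hypoxia-responsive genes P4HA1, a collagen prolyl hydroxylase, rose from 11, 18.8 and 14.2 CPM to 46.1, 84.6 and 85.7 CPM (2.30, SE 0.28, adjusted p = 0.000417) and BNIP3, of mitophagy, from 24.4, 48.3 and 40.2 CPM to 65.0, 274 and 290 CPM (2.48, SE 0.53, adjusted p = 0.00664), with 39 processed pseudogenes. GAPDH was at 2818 to 3286 CPM in hESC and 2472, 2759 and 4694 CPM in iMeLC (0.10, SE 0.23, adjusted p = 0.758). The order of lines differed from that of the streak and mesenchymal genes: CTRL1101 was the lowest iMeLC library in 21 of 29 members, and CTRL hESC 2 the highest hESC library in 21 of 29. Oxygen in culture is not stated by the labels.

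Cholesterol genes changed by role. Of 27 tested genes 17 rose and 4 fell (median 0.56); of the 19 synthesis enzymes 14 rose and 1 fell, and the 3 export genes all fell. Under every scaling 8 of the 27 and 6 of the 19 were called higher. The 4 and 1 lower calls were kept, but each scaling moved fold changes down, so this could hardly fail. NSDHL, a sterol dehydrogenase, rose from 8.18 to 8.70 CPM to 27.2 to 33.4 CPM (1.80, SE 0.14, adjusted p = 4.46e-05), and FDFT1 (squalene synthase) from 96.8, 97.1 and 99.9 CPM to 282, 241 and 260 CPM (1.41, SE 0.09, adjusted p = 2.04e-05). ABCA1, the cholesterol exporter, fell from 39.3, 27.6 and 53.2 CPM to 11.8, 12.9 and 12 CPM (-1.71, SE 0.22, adjusted p = 0.000586).

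Genes of DNA replication mostly rose: 17 of 21 tested members rose and 1 fell (median 1.01). Of the 17, 13 were called higher under every scaling, and 12 stayed called with the feature trend taken out (median 0.55). The helicase subunit MCM6 measured 80.2, 71.1 and 68.2 CPM in hESC and 303, 287 and 258 CPM in iMeLC (1.95, SE 0.11, adjusted p = 1.07e-05), CDC45, which activates that helicase, 11.5 to 15.3 CPM and 57.2 to 64.5 CPM (2.15, SE 0.14, adjusted p = 1.73e-05), and thymidylate synthase TYMS rose by 1.76 (SE 0.12). Of 19 mitosis genes 11 rose and 3 fell (median 0.59). With the feature trend taken out 6 of the 11 stayed called higher and all 3 stayed called lower (median -0.04). The kinase CDK1 rose by 1.37 (SE 0.10) and the spindle factor TPX2 by 1.69 (SE 0.16), whereas MKI67, the proliferation marker Ki-67, fell from 1161, 1075 and 1032 CPM to 704, 689 and 747 CPM (-0.61, SE 0.09, adjusted p = 0.00124).

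Stress and immune lists went both ways. Of 18 p53 targets 7 rose, 3 of them under every scaling, and 1 fell (median 0.52). Among those that rose were TNFRSF10B, a death receptor (1.02, SE 0.13), and SESN1, a sestrin (1.22, SE 0.27, and an adjusted p = 0.0649 with limma-voom). Of 16 genes of the integrated stress response 5 rose, 1 of them under every scaling, and 2 fell (median 0.12, or -0.23 under upper-quartile scaling). Of 15 immediate early genes 3 rose and 4 fell (median -0.03). With the feature trend taken out all 3 stayed called higher and none of the 4 stayed called lower (median 0.31). FOSL1, an AP-1 factor, was at 7.0 to 8.55 CPM in hESC and 26.7 to 40.4 CPM in iMeLC (2.01, SE 0.19, adjusted p = 0.000116). Of 8 metallothioneins, which bind zinc and copper, 3 rose and 1 fell (median 1.11), MT2A rising from 15, 16.8 and 26.6 CPM to 60.8, 117 and 53.8 CPM (1.98, SE 0.34, adjusted p = 0.00224) while MT1X fell by 1.77 (SE 0.40). MT1B had 1 count in the hESC libraries together and 223 in the iMeLC libraries together, a ratio per library depth of 47.8 with a 95% counting interval of 8.5 to 1898. Of 28 interferon and antigen presentation genes 2 rose and 8 fell (median -0.16). TAPBP (tapasin) fell from 70.8, 71.7 and 82.7 CPM to 24.8, 29.6 and 32.9 CPM (-1.37, SE 0.13, adjusted p = 0.000121), and B2M rose by 0.87 (SE 0.21), without a call when CTRL hESC 3 was left out (adjusted p = 0.052), with limma-voom (adjusted p = 0.0586), under upper-quartile scaling (adjusted p = 0.0813) or with the feature trend taken out (adjusted p = 0.0707).

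Genes of the ribosome, the respiratory chain and the proteasome were mostly higher. Of 83 tested cytoplasmic ribosomal protein genes 61 rose and 2 fell (median 0.97), with single genes from -2.50 to 4.47. RPL27 measured 43.0, 45.7 and 37.5 CPM in hESC and 999, 852 and 940 CPM in iMeLC (4.47, SE 0.13, adjusted p = 4.47e-06), whereas RPL19 measured 767, 776 and 675 CPM and then 1891, 1538 and 1633 CPM (1.19, SE 0.12, adjusted p = 0.000121). The measured change thus differed widely between genes for subunits of the same particle. Whether these differences belong to the stage or to how the reads were counted was not tested. Of 38 complex I subunits 29 rose and 2 fell (median 0.89), and of 38 proteasome subunits 27 rose and 3 fell (median 0.86). Of 77 mitochondrial ribosomal proteins 47 rose and 6 fell (median 0.57). COX6C, a subunit of cytochrome c oxidase with 17 processed pseudogenes, measured 4.01, 5.08 and 5.39 CPM in hESC and 170, 152 and 218 CPM in iMeLC (5.22, SE 0.19, adjusted p = 5.18e-06), and SEC61G, a small subunit of the protein translocon, 1.56 to 2.49 CPM and 60.5 to 73.6 CPM (5.06, SE 0.19, adjusted p = 5.18e-06). Replication-dependent histones, whose messages lack a poly(A) tail, went the other way, with 2 of 67 higher and 21 lower (median -0.35), as did 484 ZNF zinc finger genes, with 33 higher and 138 lower (median -0.27). The histone median was 0.46 with the feature trend taken out.

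The change also varied with features of the transcript. Among 9727 protein-coding genes with a mean of at least 10 CPM, the median log2 fold change was -0.12 for the 44 genes with transcripts of up to 500 bases, 0.84 for those of 500 to 750 bases and 0.15 for those over 5000 bases. With a trend on these features taken out, these medians were 0.81, 1.12 and 0.10. Taking out the trend thus raised the medians of both short bins and set them further above that of the longest transcripts. Before it was taken out, the median ran from -0.36 for genes with up to 2 exons to 0.58 for those with over 24. By GC content it ran from 0.45 in the lowest of 5 bins to -0.03 in the highest. By processed pseudogenes it ran from 0.23 for genes with none to 0.66 for those with 10 or more. A smooth trend on length, GC content and exon number held 14.8% of the variance of the fold changes. With it taken out, 4334 genes were called higher and 2425 lower, and 3611 of the 5144 and 1799 of the 3261 genes were called again in the same direction. Whether these trends belong to the stage, to the depth or to how each table was counted was not tested, because each stage is 1 table. The values given above for TBXT, EOMES, MIXL1, NODAL, WNT3, FGF8 and SP5 stayed called with the trend taken out.

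**Figure D5:**
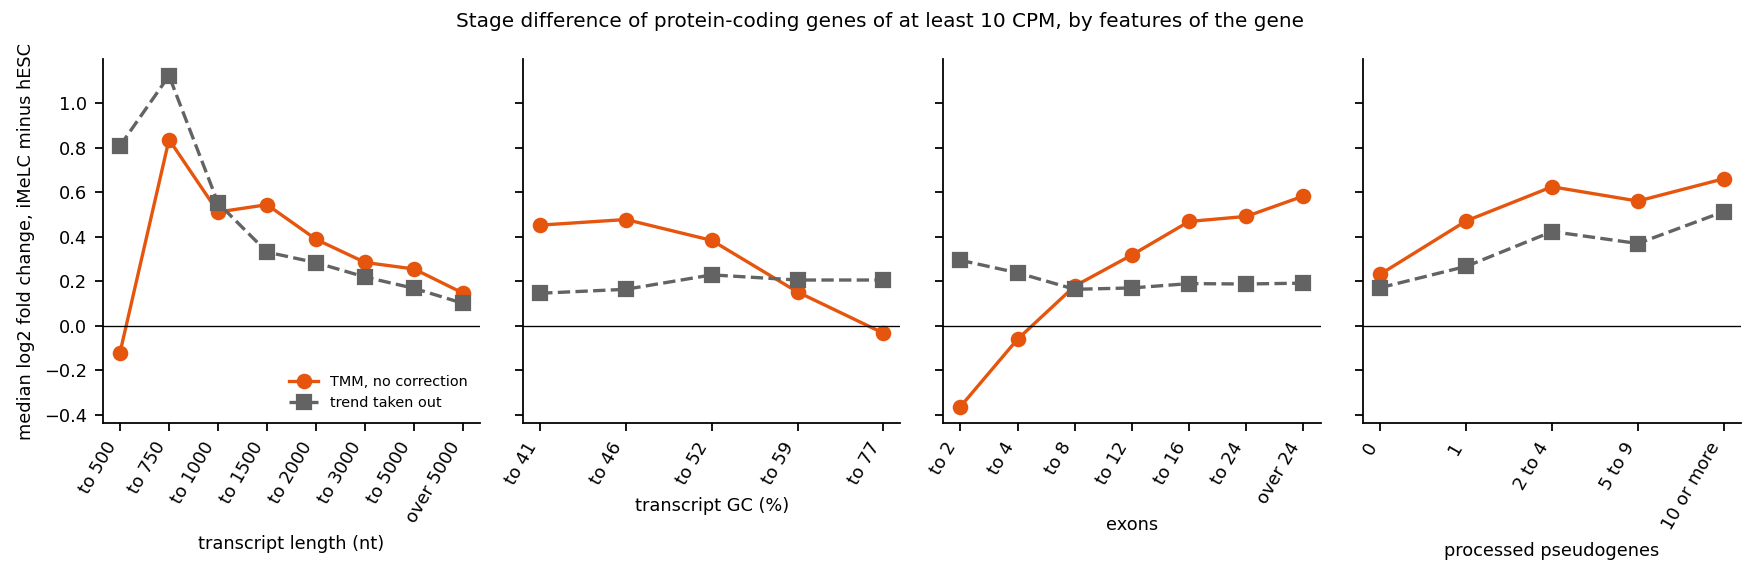
Median log2 fold change (iMeLC minus hESC) of protein-coding genes by transcript length, GC content, exon number and number of processed pseudogenes, before and after the trend on the first 3 was taken out. Before, genes with up to 2 exons lie at -0.36 and those with over 24 exons at 0.58; after, the exon bins lie between 0.16 and 0.29.

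The protein-coding genes with the largest changes outside the lists, at a mean of at least 5 CPM in a stage, were of several kinds. NTS, the neuropeptide neurotensin, rose from 2.48, 2.02 and 1.80 CPM to 106, 64.2 and 135 CPM (5.60, SE 0.32, adjusted p = 1.14e-05), and GAD1, the enzyme that makes GABA, from 2.43, 0.777 and 0.992 CPM to 53.7, 36.5 and 61.5 CPM (5.20, SE 0.41, adjusted p = 4.49e-05, and 5.87 without CTRL hESC 1). ANXA3, an annexin, and LGALS1, galectin 1, rose by 4.91 (SE 0.58) and 4.82 (SE 0.60), highest in CTRL1101 iMeLC in both and at 4.07 and 3.98 without it. Of 10 tested annexins 9 rose and 1 fell, among them ANXA2, at 28.6, 22.9 and 19.9 CPM in hESC and 538, 311 and 277 CPM in iMeLC (3.98, SE 0.28, adjusted p = 3e-05). FOXQ1, a forkhead factor, measured 0.614 to 1.02 CPM in hESC and 16.8, 1.40 and 41.5 CPM in iMeLC (4.67, SE 1.10, adjusted p = 0.0103). It stood at 3.5 without CTRL1109 and was not called without CTRL hESC 3 (adjusted p = 0.0546) or with limma-voom (adjusted p = 0.354).

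In the other direction, TRIM4, a ubiquitin ligase, measured 7.17, 10.4 and 7.84 CPM in hESC and 0.047, 0.0234 and 0.0397 CPM in iMeLC (-7.76, SE 0.36, adjusted p = 6.5e-06), and its exons overlap OR2AE1 on the same strand. SCNN1G, a subunit of the epithelial sodium channel, went from 7.28, 10.2 and 9.36 CPM to 0.341, 0.702 and 0.0793 CPM (-4.59, SE 0.65, adjusted p = 0.000873), and PDE3A, a cyclic nucleotide phosphodiesterase, from 7.90 to 10.9 CPM to 0.364 to 0.761 CPM (-4.07, SE 0.33, adjusted p = 5.01e-05). ADRA2A, an adrenergic receptor, went from 52.3, 39.2 and 73.3 CPM to 2.82, 6.72 and 0.991 CPM (-3.97, SE 0.63, adjusted p = 0.00155), with CTRL1106 highest of the iMeLC libraries. Without CTRL1106 iMeLC, SCNN1G stood at -5.46 and ADRA2A at -4.90. Of the abundant genes, HSP90AA1, a chaperone whose exons overlap WDR20, fell from 4969, 5843 and 5289 CPM to 3165, 2918 and 3339 CPM (-0.77, SE 0.11, adjusted p = 0.000898), and NPM1 (nucleophosmin, with 45 processed pseudogenes) rose from 469, 479 and 400 CPM to 2644, 2345 and 2502 CPM (2.48, SE 0.11, adjusted p = 5.97e-06).

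Among non-coding RNAs, PCAT14 rose from 17.4, 8.71 and 6.24 CPM to 192, 100 and 66.5 CPM (3.48, SE 0.49, adjusted p = 0.000851), and RBPMS-AS1, which lies antisense to RBPMS, fell from 41.3, 43.3 and 46.5 CPM to 10.2, 9.40 and 9.75 CPM (-2.16, SE 0.11, adjusted p = 9.81e-06). LINC00599, which hosts a miR-124 gene, went from 85.4, 119 and 155 CPM to 2.80, 18.4 and 11.6 CPM (-3.45, SE 0.60, adjusted p = 0.00246), and stood at -4.09 without CTRL1106 iMeLC. LINC00458, a transcript of pluripotent cells, measured 25.3, 36.4 and 38.6 CPM in hESC and 47.7, 90.4 and 502 CPM in iMeLC (2.67, SE 0.79, adjusted p = 0.0274). All 3 iMeLC libraries lay above all hESC libraries, with CTRL1109 far above the other 2. Without CTRL1109 it stood at 1.01 and stayed called (adjusted p = 0.0288), and it was not called without CTRL hESC 1, 2 or 3 (adjusted p = 0.0908, 0.078 and 0.0871), by limma-voom (adjusted p = 0.159) or with the feature trend taken out (adjusted p = 0.0527).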

How the data were processed

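Bulk RNA-seq libraries of control UCLA1 lines were used, 3 of hESC and 3 of iMeLC. The authors deposited whole-number read counts per gene symbol, 1 table per stage. FastQC, cutadapt, edgeR and the build GRCh38 are named per the submitters' processing notes; aligner, counter, annotation and the strand setting of the counting were not given in the sources used here. Both tables were joined by symbol. Genes were kept with filterByExpr, scaled with TMM and tested with edgeR 4.0.16 (quasi-likelihood, R 4.3.3) with Benjamini-Hochberg adjustment over all 19982 genes. On simulated data for this comparison (19415 genes) 47.4% of 2-fold and 81.0% of 4-fold changes were recovered and 8 unchanged genes were called. Gene positions, transcript length, exons, GC content, pseudogenes and overlaps came from GENCODE 29, which matched 34217 of 36762 symbols (93.1%), and promoters came from RefSeq (GRCh38.p14).

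The members and lists were chosen with earlier results of these data known, and the annexins, ribosomal proteins and other families after the values were seen. A fixed rule named 192 genes: the 12 largest changes each way with a mean of at least 5 CPM in a stage, the 6 largest changes in CPM each way, 4 non-coding RNAs each way, and up to 4 members per list with a mean of at least 1 CPM, besides defining members fixed by name; other list members and some genes outside them (RPL27, ANXA2 and the genes that set 1 library of a stage apart) were chosen after their values were seen, and some genes the rule names are left out, among them 3 that are not reported here. Alternatives were other scalings, filters, DESeq2 1.42.0, limma-voom (limma 3.58.1), all 12 libraries, iMeLC counts thinned to hESC depth, each library left out, and a feature trend taken out through offsets, which was added after seeing the data.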

Additional observations from a re-analysis of the deposited data

Results flagged for a closer look

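For 2 genes the stage difference itself differed between control and knockout lines, by an interaction term in edgeR's quasi-likelihood fit over all 12 libraries, with levels scaled over those 12. TRIM4 measured 6.98, 10.1 and 7.62 CPM in control hESC and 8.67, 5.30 and 5.94 CPM in knockout hESC. In iMeLC it measured 0.0468, 0.0232 and 0.0391 CPM in control lines and 6.70, 8.64 and 7.77 CPM in knockout lines. The log2 stage change in control lines minus that in knockout lines was -7.94 (adjusted p = 1.23e-06), with the low values in all 3 control iMeLC libraries and in no other library.

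ABCA1 measured 38.3, 26.9 and 51.6 CPM in control hESC and 22.1, 19.7 and 20.03 CPM in knockout hESC. In iMeLC it measured 11.8, 12.8 and 11.8 CPM in control lines and 33.2, 23.5 and 44.6 CPM in knockout lines, and the stage change differed by -2.40 on the log2 scale (adjusted p = 0.0381). Over all 20262 genes tested, 4 had such a difference past the adjusted threshold and 2275 had an unadjusted p under 0.05.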

How the results depend on the processing

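Upper-quartile scaling gave 3391 genes higher in place of 5144, 6382 lower in place of 3261, 1590 higher by at least 2-fold in place of 2604 and 3385 lower by at least 2-fold in place of 1747; it moves the fold change of every gene down. Under DESeq2 size factors, TMM on protein-coding genes, no filter, a filter of 1 CPM in 3 libraries, DESeq2, limma-voom, 12 libraries, thinned iMeLC counts and the feature trend taken out, genes higher numbered 4334 to 5981 and genes lower 2425 to 4331. With 1 library left out at a time, genes higher numbered 4348 to 4830, genes lower 1870 to 3373, those higher by at least 2-fold 2302 to 2595 and those lower by at least 2-fold 946 to 1915. The lowest counts of genes lower came without CTRL hESC 1, 2 or 3 (1870, 1968 and 1882), where 2 hESC libraries remain. FGF4 changed direction without CTRL1109 iMeLC (-1.61, adjusted p = 0.00855, against 0.16 with all libraries and up to 0.59 with another left out); the cause was not tested. No other gene given with values was called against the sign it had with all libraries. Some, among them DUSP6, NANOG, HAND1 and TET1, were called in some fits and stood at the other sign without a call in others. Those, and changes of sign between values that were not called, are not counted as changes of direction. Of the 201 genes given with values, 27 that were called above lost their call with limma-voom and 22 with the feature trend taken out. No paired analysis was possible because the hESC columns carry no line number. Depth limits the hESC side: a floor of 3 counts weighs more in libraries of 16325691 to 18855099 counts.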

Other observations

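Some genes set CTRL hESC 2 apart from the other hESC libraries and CTRL1106 apart from the other iMeLC libraries. RBM46, an RNA-binding protein of germ cells, measured 37.3 CPM in CTRL hESC 2 and 38.3 CPM in CTRL1106 iMeLC, against 1.41 and 1.47 CPM in the other hESC libraries and 0.717 and 1.06 CPM in the other iMeLC libraries. ZNF729, a zinc finger gene, was at 0.0518 CPM in CTRL hESC 2 and 0.0234 CPM in CTRL1106 iMeLC, against 317 and 330 CPM and 154 and 127 CPM in the others. ZNF560 was at 1.55 and 0.901 CPM in these 2 libraries and at 28.3 to 34.6 CPM elsewhere, and the non-coding RNA PCAT7 at 8.29 and 6.44 CPM against at most 0.189 CPM elsewhere. Among genes at least 8-fold away from both other libraries of their stage, 17 lay apart in CTRL hESC 2 and 21 in CTRL1106 iMeLC, and 6 of them were high and 7 low in both. That is 13 of the 17 and 13 of the 21. These libraries were not paired on this basis, since the hESC columns carry no line number.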
